A study of Mus musculus with 8 samples.

Results

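The microRNAs (miRNAs) described here belong to the number families miR-297, miR-466, miR-467 and miR-669, which in the mouse are known from a large array of hairpins in the gene Sfmbt2. Members were the array probes that the authors' comparison sheets name with 1 of these 4 numbers, with any letter, copy or arm suffix and without passenger-strand names ending in an asterisk. There were 32 such probes among 346 named probes: 4 of miR-297, 14 of miR-466, 7 of miR-467 and 7 of miR-669. Of these, 27 could be followed into the deposited ratio table of 431 probes, as 3, 10, 7 and 7 of the 4 families. The other 5, namely miR-297b-3p, miR-466b-5p, miR-466d-5p, miR-466f and miR-466f-5p, have values in the sheets alone. The miR-297b-3p probe also carries the passenger names of miR-297a and miR-297c.

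The cells were mouse embryonic fibroblasts from ATM+/+ and ATM-/- littermates, grown in serum-containing medium and exposed to neocarzinostatin (NCS), a radiomimetic drug that makes DNA double-strand breaks. ATM is the kinase that signals such breaks, and the ATM-/- cells lack it. Each genotype was harvested at 0, 4, 8 and 24 h, with 1 array for each of the 8 conditions. The labels give no drug dose, no embryo age and no number of embryos or cultures. The question addressed was how miRNA levels after DNA damage differ with ATM. No condition has a replicate, so no difference below was tested, and an SD is over the 3 treated times, which share the 0 h array of their genotype.

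Sfmbt2 encodes a Polycomb group protein, and the mouse gene is imprinted, with the paternal copy expressed in embryo and placenta. A rodent-specific expansion placed many near-identical miRNA hairpins in it, and such hairpins yield short RNAs that are rich in runs of alternating U and G on one arm and of alternating C and A on the other. Like other miRNAs, the mature strands guide Argonaute proteins to messenger RNAs through the seed, the bases near their 5′ end. Near-identical mature sequences can share signal on an array, so the members are not separate measurements.

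The name of the cluster held for most members and not for all. RefSeq (GRCm38.p6) lists 81 hairpin genes of the 4 numbers, of which 71 lie inside Sfmbt2 on chromosome 2, between positions 10466663 and 10518279 of a gene that spans 10370440 to 10595253. The other 10 lie elsewhere, on 7 chromosomes. By their hairpin genes, 22 members lay only inside Sfmbt2, 4 had copies both inside and elsewhere (miR-297a, miR-466f, miR-466f-3p and miR-466f-5p), and 6 lay only elsewhere. These 6 were miR-466i on chromosome 13, miR-466j on chromosome 10, miR-466k on chromosome 3, miR-467f on chromosome 11, miR-467g on chromosome 5 and miR-467h on chromosome 9. In the ratio table the corresponding numbers were 19, 2 and 6. Within Sfmbt2, miR-669a has 12 hairpin copies, miR-467a has 10 and miR-466b has 8, so a single probe can report many loci. Whether the hairpins lie in an intron was not checked, because the gene table used here gives no exons.

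The mature sequences available from RefSeq (GRCm38.p6) were those of the 6 members encoded elsewhere, which belong to miR-466 and miR-467, and they show the repeats these 6 hold. They are written 5′ to 3′ with the seed, bases 2 to 8, in capitals, and the array's miR-466i was matched to the mature strand that RefSeq calls miR-466i-3p.
miR-466i: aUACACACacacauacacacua
miR-466j: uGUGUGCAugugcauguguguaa
miR-466k: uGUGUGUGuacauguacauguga
miR-467f: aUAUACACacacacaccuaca
miR-467g: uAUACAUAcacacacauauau
miR-467h: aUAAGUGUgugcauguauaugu

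The 6 sequences had 6 distinct seeds, so no pair of them shares bases 2 to 8. All 6 held UGUGUG or ACACAC, each searched as written on the mature strand, whereas 28 (1.61%) of 1738 mouse mature sequences in the table held UGUGUG and 11 (0.633%) held ACACAC. Another motif, ACAUAC, was in 7 (0.403%) of them and in miR-466i and miR-467g. The longest run of alternating U and G was 9 bases in miR-466k and 7 in miR-466j and miR-467h. The longest run of alternating C and A was 12 bases in miR-467f, 11 in miR-466i and 9 in miR-467g. A match describes these letters and names no target.

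In ATM+/+ cells most members stood below their 0 h level after NCS, and furthest below at 4 h. The median log2 ratio to 0 h over the 27 members was -0.92 at 4 h, -0.56 at 8 h and -0.58 at 24 h, while over all 431 probes it was 0.03, 0.23 and -0.12, and single values are best read against these shifts. At 4 h, 13 of the 27 members were at least 2-fold below 0 h, against 9.74% of all probes. At 8 h there were 8 members, against 4.18% of all probes, and at 24 h there were 2, against 13% of all probes. The count at 24 h depended on the source, since the authors' deposited sheet has 11 of 29 members at least 2-fold lower there, against 17.6% of its probes. Members at least 2-fold above 0 h numbered 0, 2 and 0, against 7.19%, 6.03% and 10.4% of all probes. The lowest of the 3 times was 4 h for 18 of the 27 members, against 28.8% of probes, and 20 members lay below 0 h at all 3 times, against 25.8%.

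Without ATM the same probes had another time course. Their median log2 ratio was 0.20 at 4 h, 0.53 at 8 h and -0.25 at 24 h, with medians of -0.23, 0.03 and 0 over all probes. A course above 0 h at 4 and 8 h and below it at 24 h was seen in 12 of the 27 members, against 8.82% of all probes. At 4, 8 and 24 h there were 1, 3 and 0 members at least 2-fold above 0 h, against 1.16%, 5.1% and 0.696% of probes. There were 1, 1 and 2 at least 2-fold below, against 4.41%, 3.02% and 2.55% of probes. The heat map of log2 ratios shows both courses member by member.

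**Figure D1:**
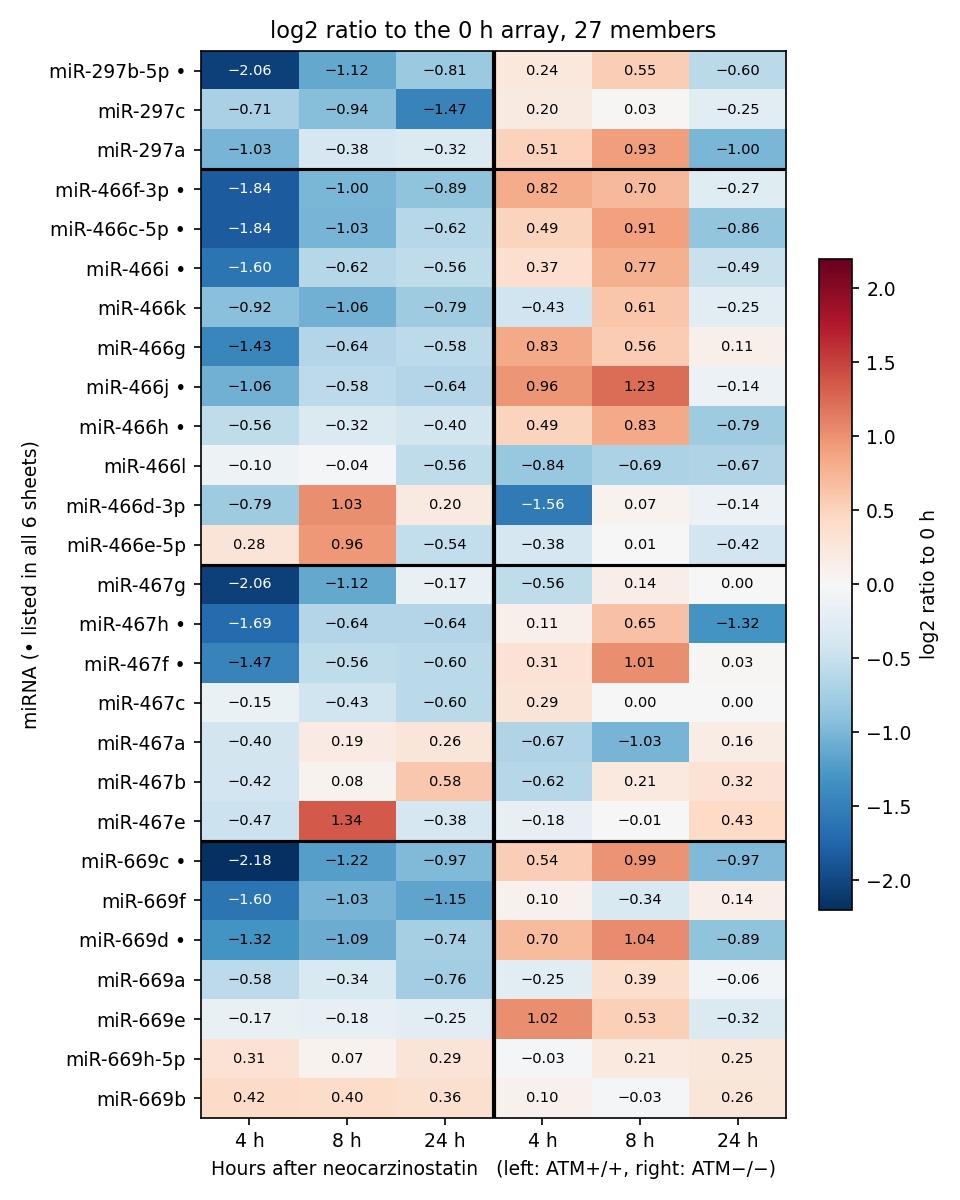
Heat map of log2 ratios, each treated array over its own genotype's 0 h array, for the 27 members in the ratio table (rows, grouped by family and ordered by their ATM+/+ mean) at 4, 8 and 24 h in ATM+/+ cells (left columns) and ATM-/- cells (right columns), each cell being 1 array. Dots mark members listed in all 6 sheets. The lowest value is that of miR-669c at 4 h in ATM+/+ cells, -2.18, and the same miRNA stands at 0.54 at 4 h in ATM-/- cells.

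The size of the response by number family depended on the source and on the members counted. In the ratio table, in ATM+/+ cells the miR-297 median was -1.03, -0.94 and -0.81 at 4, 8 and 24 h, the miR-466 median -0.99, -0.60 and -0.57, the miR-669 median -0.58, -0.34 and -0.74, and the miR-467 median -0.47, -0.43 and -0.38. In cells lacking ATM the miR-466 median was 0.43, 0.66 and -0.34 and the miR-297 median 0.24, 0.55 and -0.60. There the miR-669 median was 0.10, 0.39 and -0.06, and the miR-467 median -0.18, 0.14 and 0.03. With 3 to 10 probes in a family, each family held members far apart, so its median describes a mixture. In the authors' deposited sheets, family medians of the ATM+/+ mean over times covered only members listed at all 3 times. These were 4, 11, 4 and 6 probes of miR-297, miR-466, miR-467 and miR-669. Their medians lay close together, at -1.06, -0.95, -1.04 and -0.90, and the order of the ratio table was lost. In the ratio table itself, members above the 10th percentile of sheet intensities had medians of -0.95, -0.91, -0.93 and -0.80. Those rest on 2, 6, 2 and 6 probes. The parts of the source and of the members counted were not tested.

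The 3 miR-297 members in the ratio table were all below 0 h at each time in ATM+/+ cells. For miR-297b-5p the ATM+/+ ratios to 0 h were 0.24, 0.46 and 0.57 at 4, 8 and 24 h, and the ATM-/- ratios were 1.18, 1.46 and 0.66. The ratio of miR-297a was 0.49, 0.77 and 0.8 in ATM+/+ cells, against 1.42, 1.9 and 0.5 in ATM-/- cells. miR-297c ran in the other order, with ATM+/+ ratios of 0.61, 0.52 and 0.36, lowest at 24 h, and ATM-/- ratios of 1.15, 1.02 and 0.84. In the ratio table all 3 were lower in ATM+/+ than in ATM-/- cells at 4 and 8 h, against 144 and 156 of all 431 probes. The 0 h intensities of this family were modest, at 96.4 for miR-297b-5p, 68.5 for miR-297a and 45.5 for miR-297c in ATM+/+ cells. In the authors' deposited sheet for ATM-/- cells at 8 h, miR-297a had a log2 ratio of -0.86, opposite in sign to the ratio table, between intensities of 33.7 and 18.5. That lies below its ATM+/+ value of -0.41 in the authors' deposited sheet at 8 h, so for miR-297a the order depends on the source.

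The 10 miR-466 members in the ratio table split into 7 with lower responses in ATM+/+ than in ATM-/- cells at both 4 and 8 h and 3 with higher ones. Taken time by time, 144 and 156 of all 431 probes were lower in ATM+/+ cells at 4 and 8 h. miR-466f-3p, the most intense member of the family, had ratios of 0.28, 0.5 and 0.54 in ATM+/+ cells, against 1.77, 1.63 and 0.83 in ATM-/- cells. miR-466c-5p had 0.28, 0.49 and 0.65 with ATM and 1.4, 1.88 and 0.55 without it. miR-466j, encoded on chromosome 10, had 0.48, 0.67 and 0.64 in ATM+/+ cells and reached 1.95, 2.34 and 0.91 in ATM-/- cells, the highest ATM-/- mean of the members. These 3 lay below 0 h at every ATM+/+ time and above it at 4 and 8 h in ATM-/- cells, as did miR-466i, at 0.33, 0.65 and 0.68 with ATM and 1.29, 1.71 and 0.71 without it. miR-466k, a dimmer probe at 51.6, had 0.53, 0.48 and 0.58 with ATM and 0.74, 1.53 and 0.84 without it. miR-466h, known from Chinese hamster ovary cells to promote apoptosis when nutrients run out, stood closer to 0 h, with ratios of 0.68, 0.8 and 0.76 in ATM+/+ cells, against 1.4, 1.78 and 0.58 in ATM-/- cells.

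The 3 miR-466 members on the other side were miR-466e-5p, miR-466d-3p and miR-466l. miR-466e-5p had ATM+/+ ratios of 1.21, 1.94 and 0.69 and ATM-/- ratios of 0.77, 1.01 and 0.75. miR-466l, known in mouse macrophages for raising interleukin 10 through its messenger RNA, had 0.93, 0.97 and 0.68 in ATM+/+ cells, against 0.56, 0.62 and 0.63 in ATM-/- cells, the only member below 0 h at all 3 ATM-/- times. miR-466d-3p had 0.58, 2.04 and 1.15 with ATM and 0.34, 1.05 and 0.91 without it. All 3 were dim: none was listed in an ATM-/- sheet, and their lowest 0 h intensities in the ATM+/+ sheets that list them were 20.8 for miR-466e-5p, 32.4 for miR-466l and 35.7 for miR-466d-3p.

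In the miR-467 family the 3 members encoded outside Sfmbt2 had the lowest ATM+/+ ratios at 4 and 8 h, but not at 24 h, where miR-467c and miR-467e inside it had 0.66 and 0.77. miR-467g had ratios of 0.24, 0.46 and 0.89 in ATM+/+ cells, against 0.68, 1.1 and 1 in ATM-/- cells. miR-467h had 0.31, 0.64 and 0.64 with ATM and 1.08, 1.57 and 0.4 without it. miR-467f had 0.36, 0.68 and 0.66 with ATM and 1.24, 2.02 and 1.02 without it. These 3 were below 0 h at every ATM+/+ time. The members inside Sfmbt2 had ATM+/+ means nearer to 0 h, from -0.40 for miR-467c to 0.16 for miR-467e. miR-467a, which has many copies, had ratios of 0.76, 1.14 and 1.2 in ATM+/+ cells, against 0.63, 0.49 and 1.12 in ATM-/- cells. miR-467e had 0.72, 2.54 and 0.77 with ATM and 0.88, 0.99 and 1.35 without it, and its 8 h ATM+/+ ratio was the highest of the 27 members. miR-467a, miR-467b, miR-467c and miR-467e were listed in no ATM-/- sheet, and miR-467b began from an intensity of 18.0 in the authors' deposited sheet for ATM+/+ cells at 24 h.

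The miR-669 family held both ends of the ATM+/+ range of means. miR-669c, the most intense of all members, had ATM+/+ ratios of 0.22, 0.43 and 0.51 and ATM-/- ratios of 1.45, 1.98 and 0.51. Its mean ATM+/+ log2 ratio was -1.46 ± 0.64 (SD over 3 times) and its ATM-/- mean 0.18 ± 1.03. The genotypes were far apart at 4 and 8 h and equal at 24 h. miR-669d had the same signs at each time, with 0.4, 0.47 and 0.6 in ATM+/+ cells and 1.62, 2.05 and 0.54 without ATM. miR-669f had 0.33, 0.49 and 0.45 in ATM+/+ cells, with a mean of -1.26 ± 0.30, and 1.07, 0.79 and 1.1 in ATM-/- cells. miR-669b had 1.34, 1.32 and 1.28 in ATM+/+ cells, the highest mean of the members at 0.39 ± 0.03, and 1.07, 0.98 and 1.2 in ATM-/- cells. miR-669h-5p was likewise above 0 h at each ATM+/+ time, at 1.24, 1.05 and 1.22, and had 0.98, 1.16 and 1.19 in the other genotype. The authors' deposited ATM+/+ sheet at 4 h, where alone it is listed, gives it a log2 ratio of -0.07, opposite in sign, between intensities of 33.2 and 31.6. miR-669e had ratios of 0.89, 0.88 and 0.84 with ATM and 2.03, 1.44 and 0.8 without it. The authors' deposited ATM+/+ sheets place it further below 0 h, with log2 ratios of -0.40, -0.63 and -0.77 and deposited p-values of 0.109, 0.0511 and 0.0283. miR-669a, known in mouse for restraining muscle differentiation through MyoD, had ratios of 0.67, 0.79 and 0.59 with ATM and 0.84, 1.31 and 0.96 without it.

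Few names carry an arm, so 5p and 3p strands could be compared only over 4 and 2 probes in the ratio table, and the other 21 names have no suffix. At 4, 8 and 24 h the 5p median log2 ratio was -0.78, -0.48 and -0.58 with ATM and 0.10, 0.38 and -0.51 without it. The 3p median was -1.31, 0.01 and -0.34 with ATM and -0.37, 0.39 and -0.20 without it, from miR-466f-3p and miR-466d-3p, which lay on opposite sides of 0 h at 8 h in ATM+/+ cells. Within each arm the ATM+/+ mean was below 0 h for some members and above it for others, 2 and 2 for 5p and 1 and 1 for 3p. The miR-466f hairpin has both arms in the sheets. In the authors' deposited ATM+/+ sheets for 4, 8 and 24 h the log2 ratio of miR-466f-5p was -1.43, -0.85 and -0.96, with deposited p-values of 0.000247, 0.00223 and 0.000821, and that of miR-466f-3p was -1.90, -1.12 and -1.29, with p-values of 0.00126, 0.00461 and 0.00279. In the authors' deposited ATM-/- sheets the arms lay apart at 4 h, where miR-466f-5p was at 1.02 and miR-466f-3p at 0.14. They were close at 24 h, at -1.25 and -1.19. The deposited p-values at 4 and 24 h were 0.0478 and 0.171 for miR-466f-5p and 0.0160 and 9.01e-05 for miR-466f-3p. The miR-466f-5p probe was dim there, with a 0 h coefficient of variation of 57.5%. Its 24 h intensity of 17.0 was the lowest of the 126 probes in that sheet. At 8 h the intensities of miR-466f-5p were 52.1 at 0 h and 104 after NCS in the authors' deposited sheet, while the log2 ratio of miR-466f-3p was 0.03. The ratio table gives miR-466f-3p the higher log2 values of 0.82 and 0.70 at 4 and 8 h in these cells, so its size there depends on the source. The probe named miR-466f without an arm had -1.43, -1.22 and -0.96 with ATM and 0.69, 0.18 and -0.19 without it in the authors' deposited sheets. The arm of that probe is not given in the sources used here. The other sheet-only members are listed for ATM+/+ cells alone. There the authors' deposited log2 ratios were -0.79, -0.41 and -1.16 for miR-297b-3p, -0.83, -0.50 and -1.51 for miR-466b-5p and -0.46, 0.20 and -0.25 for miR-466d-5p, from dim 4 h sheet intensities at 0 h of 39.2, 30.7 and 46.3.

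In ATM+/+ cells, how far a member stood below 0 h went with how bright its probe was. The 10 members of the ratio table that are listed in all 6 sheets had ATM+/+ medians of -1.64, -0.82 and -0.64, and the 17 others had -0.47, -0.18 and -0.38. The ATM-/- medians were 0.49, 0.87 and -0.69 for the 10 and -0.18, 0.07 and 0 for the 17. All 10 were below 0 h at all 3 ATM+/+ times and above 0 h at 4 and 8 h in ATM-/- cells, a combination seen in 4 of the 17 others, in 9.74% of all probes and in 17 of 87 other probes that are also in all 6 sheets. None of the 11 members absent from all ATM-/- sheets showed it. The rule by which the authors listed probes in a sheet is not given in the sources used here, and the time courses of the 2 sets are plotted side by side.

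**Figure D2:**
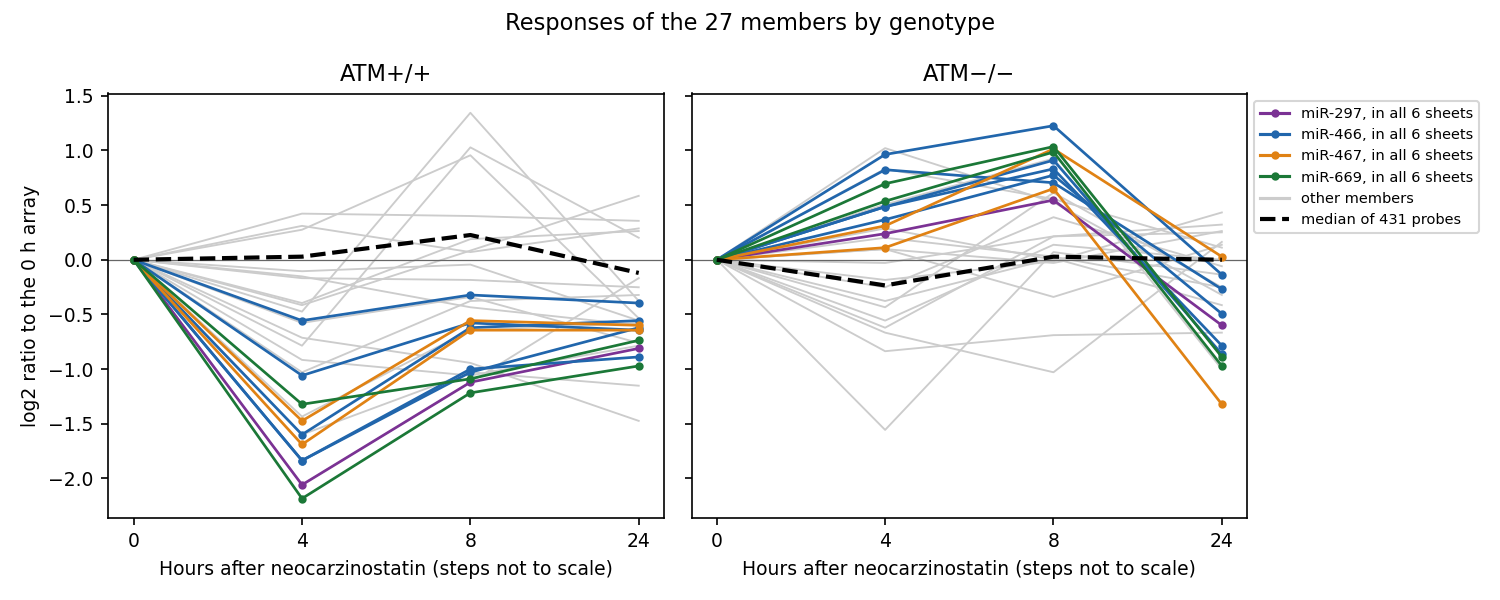
Log2 ratio to the 0 h array (vertical axis) at 0, 4, 8 and 24 h after NCS in ATM+/+ (left) and ATM-/- cells (right), 1 line per member and 1 array per point. Coloured lines are the 10 members listed in all 6 sheets, grey lines the 17 other members, and the dashed line is the median of 431 probes. The coloured lines reach a median of -1.64 at 4 h in ATM+/+ cells, against 0.49 in ATM-/- cells.

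Across the members, the ATM+/+ log2 ratio was lower the higher the 0 h intensity, with Spearman's rho of -0.78 over 23 probes at 4 h, -0.68 over 22 at 8 h and -0.53 over 24 at 24 h. Over the other probes rho was -0.03, -0.13 and 0.05. The members' rho in ATM-/- cells was -0.09 over 15 probes, 0.42 over 14 and -0.65 over 10. These are descriptions across probes that share arrays and sequence, and the 0 h intensity enters both measures. Of the 28 members in the ATM+/+ sheet at 4 h, 6 had an intensity at or under the 10th percentile of that sheet, 24.4, in at least 1 of its arrays.

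**Figure D3:**
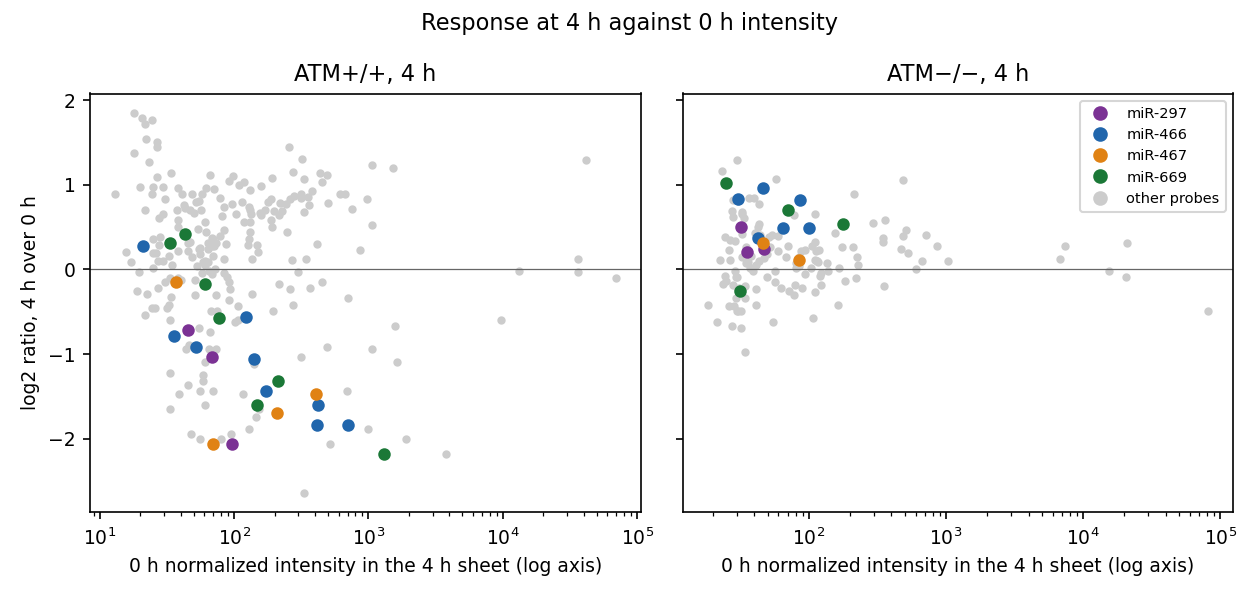
Log2 ratio of 4 h over 0 h (vertical axis) against the normalized 0 h intensity in the authors' 4 h sheet (horizontal log axis) for ATM+/+ (left) and ATM-/- cells (right). Each point is a probe, coloured by family for members and grey for other probes. In ATM+/+ cells the brightest member, miR-669c at 1298, has the lowest log2 ratio of the members, -2.18, with a rank correlation of -0.78 over 23 members and -0.03 over the other probes.

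The members listed in all 6 sheets also differed in level between genotypes before the drug. For the 12 members in all 6 sheets, the log2 ratio of ATM+/+ over ATM-/- intensity had a median of 1.99 at 0 h, with all 12 higher in ATM+/+ cells, against 0.90 over all 120 probes in all 6 sheets. At 4 h the median was -0.09, with 6 of 12 higher in ATM+/+ cells, against 0.49 over the 120 probes. At 8 h it was 0.62 against 0.61, and at 24 h 1.82 against 0.76, with 11 and 12 of the 12 higher in ATM+/+ cells. Most of the 120 probes were also higher in ATM+/+ cells, namely 103, 89, 91 and 96 of them at 0, 4, 8 and 24 h. Relative to the 120 probes, the members' median of this log2 ratio was 1.09 at 0 h, -0.58 at 4 h, 0.01 at 8 h and 1.06 at 24 h. How the sheets were normalized is not given in the sources used here, and the 0 h values of 1 array carry a constant factor in each sheet, from 0.821 to 1.24 relative to the 4 h sheet, so these levels depend on a scaling that was not tested.

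The values of single members show the same course. The intensity of miR-669c was 1298, 275, 468 and 484 at 0, 4, 8 and 24 h in ATM+/+ cells, against 177, 238, 214 and 96.1 in ATM-/- cells. That of miR-466f-3p was 708, 190, 326 and 290 in ATM+/+ cells, against 86.1, 94.7, 87.8 and 37.9 in ATM-/- cells. For both, every ATM+/+ value lay above the ATM-/- value of its time, though the gap for miR-669c was small at 4 h. For miR-467f the intensity was 406, 145, 245 and 220 in ATM+/+ cells, against 46.4, 67.9, 73.9 and 43.9 in ATM-/- cells. For miR-297b-5p it was 96.4, 24.5, 50.4 and 44.5 with ATM and 46.8, 64.1, 54.7 and 31.5 without it, so the ATM-/- value was higher at 4 and 8 h. Low values limit what the ATM-/- array at 24 h can show: in its sheet miR-466h, miR-466i and miR-466j share the intensity 27.8 as deposited, with 15 of 126 probes lower.

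**Figure D4:**
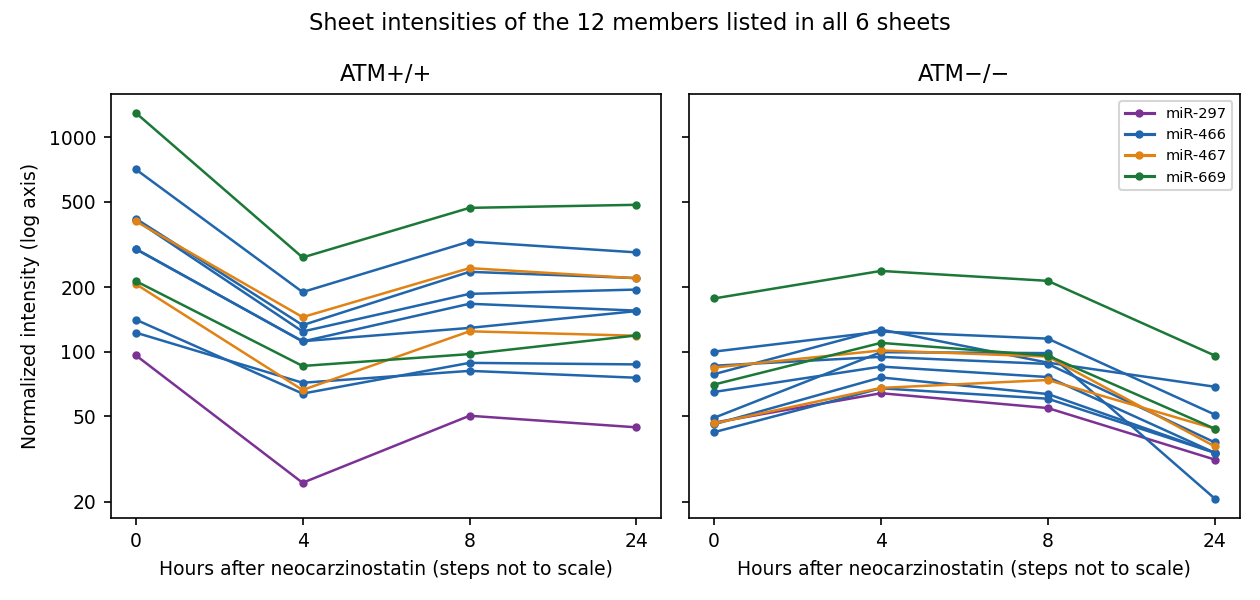
Normalized intensity from the authors' sheets (vertical log axis) of the 12 members listed in all 6 sheets at 0, 4, 8 and 24 h in ATM+/+ (left) and ATM-/- cells (right), 1 line per member, coloured by family, with the 8 and 24 h sheets rescaled so that their 0 h values match the 4 h sheet. The ATM+/+ lines start higher, with a median of 301 against 67.7, and the medians are 112 and 97.2 at 4 h.

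Genotypes were also compared through the responses at equal times. The ATM+/+ log2 ratio minus the ATM-/- log2 ratio had a median of -1.19 at 4 h, -1.15 at 8 h and -0.06 at 24 h over the 27 members, and of 0.33, 0.28 and -0.09 over all probes. The number of members lower in ATM+/+ cells was 20, 21 and 14 of 27, against 144, 156 and 236 of all 431 probes. At 24 h the members' share was thus near that of all probes. At all 3 times 12 members were lower in ATM+/+ cells, against 19.3% of all probes, and 11 had a mean difference of -1 or lower, against 8.82%. By family, the median of the mean differences was -1.04 for miR-297, -1.02 for miR-466, -0.49 for miR-467 and -0.61 for miR-669. These rest on 3, 10, 7 and 7 probes of the ratio table. The authors' deposited sheets gave -1.38, -1.16, -1.10 and -1.44, but over only 1, 7, 2 and 2 probes, those listed in every sheet. The miR-297 value from the sheets is that of miR-297b-5p alone, so the members counted differ between the sources. The mean difference was -1.64 ± 1.44 for miR-669c and -1.66 ± 1.02 for miR-466f-3p, and at 24 h their differences were 0 and -0.62. The ATM-/- mean of miR-466f-3p behind its value was 0.42, whereas the authors' deposited sheets give -0.34. The course below 0 h at every ATM+/+ time and above at every ATM-/- time was seen in 2 members, miR-466g and miR-467f, against 3.94% of all probes. Each response is relative to its genotype's own 0 h array, and the levels at 0 h differed between genotypes.

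Members encoded only outside Sfmbt2 had, as a group, lower ATM+/+ values than those inside. The medians of the 6 outside were -1.54, -0.63 and -0.62 at 4, 8 and 24 h, and those of the 19 inside were -0.56, -0.32 and -0.56. For ATM-/- cells the medians were 0.21, 0.71 and -0.19 outside and 0.10, 0.21 and -0.14 inside. All 6 outside, and 12 of the 19 inside, were below 0 h at all 3 ATM+/+ times, against 25.8% of all probes. Of other probes in all 6 sheets, 26 of 87 were, as were all 10 members in all 6 sheets. Brightness moved with this split, since 4 of the 6 outside and 5 of the 19 inside were listed in all 6 sheets. Among these brighter members the outside ones were not lower as a group. The ATM+/+ means of the 4 outside ran from -0.99 for miR-467h to -0.76 for miR-466j. Those of the 5 inside ran from -1.46 for miR-669c to -0.42 for miR-466h. Between them lay miR-297b-5p, miR-466c-5p and miR-669d at -1.33, -1.16 and -1.05. The part of brightness in the difference was not tested. The widest ATM+/+ range of means was inside, from miR-669c at -1.46 to miR-669b at 0.39.

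**Figure D5:**
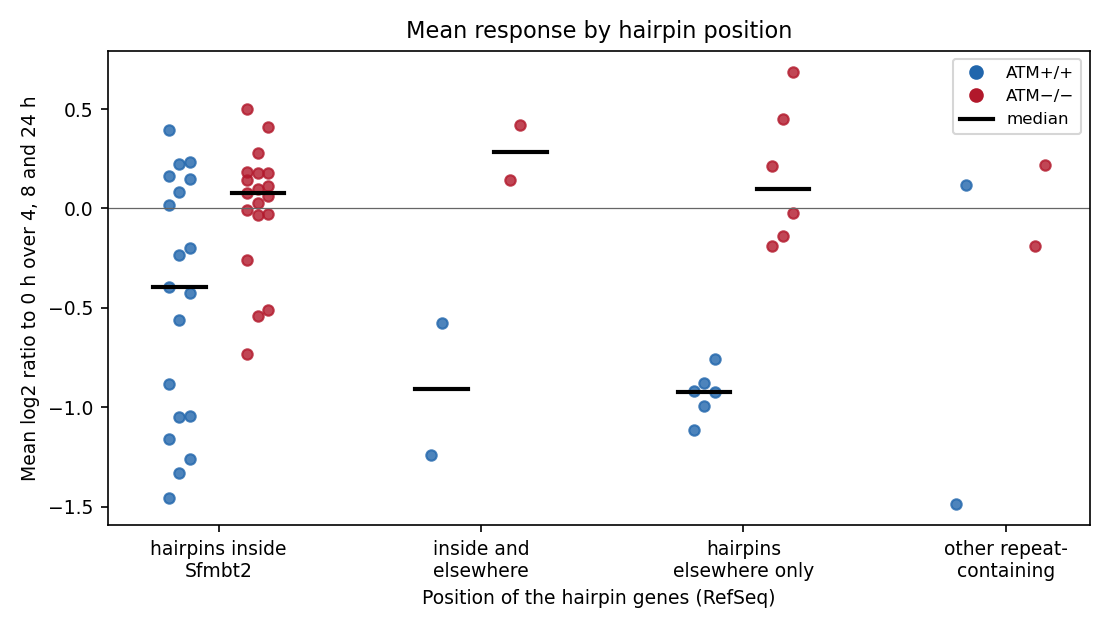
Mean log2 ratio to 0 h over 4, 8 and 24 h (vertical axis) for members whose hairpin genes lie only inside Sfmbt2 (19), inside and elsewhere (2) or only elsewhere (6), and for miR-1187 and miR-574-3p, repeat-containing miRNAs of other numbers. Blue points are ATM+/+ and red points ATM-/- cells, 1 point per probe, with black bars at the medians. The 6 members encoded elsewhere have ATM+/+ means from -1.12 to -0.76.

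Other miRNAs on the array hold the same repeats without belonging to the 4 numbers or to Sfmbt2. Of 85 named probes whose exact mature name is in the RefSeq table, 4 such miRNAs held a motif: miR-1187, miR-574-5p, miR-574-3p and miR-362-3p. The 3 with the longest runs are shown to set their repeats beside those of the members, with the seed in capitals.
miR-1187: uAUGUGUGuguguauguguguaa
miR-574-5p: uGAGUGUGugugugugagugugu
miR-574-3p: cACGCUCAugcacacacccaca

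miR-1187, on chromosome 5 with a run of 11 alternating U and G bases, had ratios of 0.22, 0.44 and 0.47 in ATM+/+ cells, against 1.5, 1.78 and 0.59 in ATM-/- cells. miR-574-5p, also on chromosome 5 and with a run of 13, is in the sheets alone. Its log2 ratio in the authors' deposited sheets was -2.28, -1.34 and -1.39 in ATM+/+ cells, against 0.48, -0.08 and -0.98 in ATM-/- cells. miR-574-3p comes from the same hairpin and has a run of 7 alternating C and A bases, and its ratios were 1.06, 1.07 and 1.13 with ATM and 0.69, 1.09 and 0.9 without it. The UG-rich pair were both bright, with ATM+/+ 0 h intensities of 3787 and 2934. In ATM+/+ cells each had values like those of miR-669c in the same source, whereas miR-574-3p, at 63.9, stayed near 0 h there. In the authors' deposited sheets miR-669c had -2.24, -1.47 and -1.42 in ATM+/+ cells, against 0.43, 0.27 and -0.88 in ATM-/- cells. At 8 h in ATM-/- cells miR-574-5p thus differed from it in sign. miR-362-3p, at 23.3, had log2 ratios of 0.25 and 0.29 in the authors' deposited ATM+/+ sheets at 4 and 24 h. Shared signal between probes of alike sequence was not tested.

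Late-numbered rodent miRNAs, which were added to the miRNA registry after most conserved ones and include miR-1187, were another set near the members. Over 41 of them, none a member, the ATM+/+ medians were -0.64, -0.45 and -0.60 and the ATM-/- medians 0.10, 0.51 and 0.01. All 3 ATM+/+ times were below 0 h in 30 of the 41. Lower values in ATM+/+ cells were therefore not particular to the 4 numbers. The lowest time was 4 h for 16 of the 41 and for 18 of the 27 members. No test of this difference was made.

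The authors' deposited sheets give a p-value for each probe, whose test is not given in the sources used here. At a deposited p under 0.05, the authors' deposited sheets for ATM+/+ cells have 19 of 28, 18 of 27 and 21 of 29 members lower at 4, 8 and 24 h, against 27%, 29.2% and 36.1% of all probes listed. The authors' deposited ATM-/- sheets have 11 of 17, 4 of 16 and 0 of 12 members higher, against 20%, 17.5% and 16.7%. They have 0, 0 and 6 members lower, against 6.49%, 20.8% and 27%. Over the members present in both, the ratio table lay above the sheets by a median of 0.55 log2 units in ATM-/- cells at 8 h and by 0.34 in ATM+/+ cells at 24 h, and by 0.12 or less elsewhere. The ATM-/- values at 8 h are therefore lower in the sheets, with a median of 0.21 over 16 members. With 1 array per condition, these p-values hold no spread between cultures.

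The slide lists place the arrays on 4 chips, each with 1 genotype: the 0 and 4 h arrays share a chip, as do the 8 and 24 h arrays. Within a chip, the median log2 difference over the members was -0.92 for 4 h over 0 h and 0 for 24 h over 8 h in ATM+/+ cells, against 0.20 and -0.45 in ATM-/- cells. Both contrasts set position 2 over position 1. Between chips at equal position, 8 h over 0 h was -0.56 and 24 h over 4 h was 0.58 in ATM+/+ cells, against 0.53 and -0.29 in ATM-/- cells. Genotype and chip cannot be told apart, since no chip holds both. As a check of cell type, all 5 fibroblast miRNAs looked for (miR-21, miR-143, miR-145, miR-199a-3p and miR-214) were listed in both genotypes. Their 0 h intensities differed unevenly between genotypes. With ATM, miR-21 stood at 1059 against 32.3 without it, miR-143 at 673 against 111 and miR-199a-3p at 317 against 29.4. The gap was smaller for miR-214, at 756 against 531, and for miR-145, at 1070 against 1027, and the 5 summed to 3875 against 1731. Of markers of other cell types, 4 of 15 pluripotent, 3 of 5 epithelial, 3 of 6 blood, 4 of 4 muscle, 1 of 3 neural, 1 of 2 endothelial and 0 of 1 liver miRNAs were listed in any sheet. Muscle markers summed to 523 with ATM against 223 without it, epithelial ones to 446 against 164, pluripotent ones to 174 against 54.6 and blood ones to 86.5 against 32.3. Most of the epithelial sum was miR-141, at 368 and 164. The neural sum was 24.7 in ATM+/+ cells, and no neural marker was listed at 0 h in ATM-/- cells. Their part in the members' values was not tested.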

How the data were processed

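Total RNA (4 µg, Trizol) was labelled for single-colour miRNA arrays, per the labels' protocols. The authors deposited a ratio per probe to the 0 h array of its genotype and 6 comparison sheets. Per the file headers, the sheets hold normalized intensity, a coefficient of variation, a log2 ratio and a p-value. The sources used here do not state scanner processing, normalization or the test behind the p-value. Responses were computed as log2 of each deposited ratio without a pseudocount, counted at 2-fold and not tested, since each group is 1 array. Members and lists were chosen with earlier results of these data known. Named members were, per family, the brightest in all 6 sheets, the 2 lowest and the highest by ATM+/+ mean, and the lowest and highest by ATM-/- mean (17 in all); other members named were chosen after their values were seen. Hairpins were placed with RefSeq by symbol or synonym. Alternatives were another source, scaling, threshold, intensity filter and set of times. Summaries were tested on simulated data. Python 3.11.15, pandas 2.3.3, numpy 2.4.6, scipy 1.17.1 and matplotlib 3.10.9 were used.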

Additional observations from a re-analysis of the deposited data

Results flagged for a closer look

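In the ratio table, 2 members had every treated ATM+/+ array below its 0 h array and every treated ATM-/- array above its own. The same course was seen in 3.94% of all probes. For miR-466g the mean ATM+/+ log2 ratio minus the ATM-/- one was -1.38 ± 0.80 (SD over 3 times), from ATM+/+ ratios of 0.37, 0.64 and 0.67 and ATM-/- ratios of 1.78, 1.47 and 1.08 at 4, 8 and 24 h. For miR-467f it was -1.33 ± 0.62. The difference was not tested, because each condition is 1 array and the 3 times share a 0 h array. At 24 h in ATM-/- cells the ratios were only 1.08 and 1.02, and the authors' deposited sheet at that time gives miR-467f a log2 ratio of -0.08. That sheet does not list miR-466g. The authors' deposited ATM-/- sheets give miR-466g 0.71 at 4 h, but 0.03 at 8 h, between dim intensities of 32.0 and 32.7.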

How the results depend on the processing

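No paired analysis was possible because each genotype and time is 1 array and no result comes from a test. Family medians in ATM+/+ cells kept a negative sign in 50 of 50 alternatives and genotype differences in 30 of 30, while ATM-/- family medians kept theirs in 39 of 49. The counts for family medians include leaving out probes with several names and averaging probes of one name, 10 alternatives each over both genotypes. Neither could change a value, because no member of the ratio table has several names or shares its name with another probe. Medians from the authors' sheets cover only members listed in every sheet they use, so the members counted change with the source. Genotype differences from the sheets rest on 1, 7, 2 and 2 probes of miR-297, miR-466, miR-467 and miR-669. Values moved by more than the spread over times as follows. With the log2 ratios of the authors' sheets, ATM+/+ means over the times were -1.03 for all members, -1.04 for miR-467, -0.90 for miR-669 and -1.08 for 5p names, genotype differences were -1.10 for miR-467 and -1.44 for miR-669, and miR-466f-3p turned to -0.34 in ATM-/- cells. Among named members in ATM+/+ cells the sheets moved miR-297c from -1.04 to -1.52, miR-669b from 0.39 to 0.17 and miR-669e from -0.20 to -0.60, and centring moved miR-669b to 0.35 and miR-669e to -0.25. With members in all 6 sheets alone, the ATM+/+ means were -1.02 for all, -1.33 for miR-297, -0.93 for miR-467 and -1.25 for miR-669, and the differences -1.07 for miR-467 and -1.49 for miR-669. Above the 10th percentile of sheet intensities they were -0.93 for miR-467 and -0.80 for miR-669. Without 24 h, miR-297 stood at -0.83 and miR-467 at -0.29; without 4 h, miR-467 stood at -0.52 and its genotype difference at -0.31. With arms of unsuffixed names from RefSeq, 5p names stood at -0.92. Centring moved 24 h over 8 h to 0.35 and 8 h over 0 h to -0.78 in ATM+/+ cells.

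The members counted changed with the setting. Apart from 17.6% of probes at least 2-fold lower in the ATM+/+ 24 h sheet, shares of all probes under these settings are not given here. The counts below thus show only how the members' numbers moved. Counts at least 2-fold lower at 24 h in ATM+/+ cells were 11 of 29 in the sheets and 1 of 27 after quantile normalization. They were 13 of 27 at 1.5-fold and 1 of 20 above the intensity percentile. In ATM-/- cells they were 0 of 17 at 4 h and 0 of 16 at 8 h in the sheets. At 1.5-fold they were 4 of 27 at 4 h and 2 of 27 at 8 h. Above the percentile they were 0 of 14 at 4 h and 0 of 11 at 8 h. At 24 h they were 6 of 27 after quantile normalization, 8 of 27 at 1.5-fold and 1 of 6 above the percentile. Counts at least 2-fold higher at 8 h in ATM+/+ cells, each of 27, were 0 in the sheets, 1 after centring and 1 after quantile normalization. At 24 h the count was 1 of 27 at 1.5-fold. In ATM-/- cells at 4 h they were 4, 5 and 5 of 27 after centring, quantile normalization and at 1.5-fold. At 8 h they were 1 of 16 in the sheets, 1 of 27 after quantile normalization and 11 of 27 at 1.5-fold. The cause was not tested. An alternative centring of the genotype levels was added after seeing the data and kept their order. Leaving out probes with names of both arms was not run, as no such probe exists. One array per condition, and dim probes in ATM-/- cells, limit all values.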

Other observations

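Passenger strands (names ending in an asterisk), which come from the other arm of miRNA hairpins and were left out of the members, had medians closer to 0. In the authors' deposited sheets their median log2 ratio in ATM+/+ cells was 0.04 over 34 probes at 4 h, -0.07 over 33 at 8 h and -0.50 over 31 at 24 h, where the members had -1.19, -0.67 and -0.92. In ATM-/- cells it was 0.05, -0.07 and -0.30 over 17, 14 and 11 probes, where the members had 0.55, 0.21 and -0.78. The 159 unnamed probes of the ratio table had median differences of ATM+/+ minus ATM-/- log2 ratios of 0.35, 0.44 and -0.38 at 4, 8 and 24 h, where the members had -1.19, -1.15 and -0.06. The differences between these sets were not tested.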
